A study of Arabidopsis thaliana with 12 samples.

Results

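Salicylate (salicylic acid) synthesis and response genes were followed in seedlings of Arabidopsis thaliana through 10 named genes: ICS1, EDS5 and PBS3 of synthesis and export, EDS1 and PAD4 upstream of synthesis, the receptor gene NPR1, and the response genes PR1, PR2, PR5 and LURP1. Their rows were picked by gene identifier, and each of the 10 was found in all 3 deposited gene tables, which hold 19647, 19327 and 19244 loci. RNA came from bulked seedlings aged 2 weeks, grown on agar with sucrose, of the Col-0 wild type and of the mutant rbm25-1, either without treatment or 6 hours after a spray of 0.1 mM abscisic acid (ABA), a hormone of water stress and dormant seeds. Each of the 4 groups has 3 replicates, 12 samples in all, and the labels name no mock spray and do not describe the rbm25-1 allele. The questions are what ABA changes in the wild type and how rbm25-1, a mutant named for the splicing-factor gene RBM25, differs from wild type without and with the hormone.

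Salicylate is a plant hormone of defence against pathogens that feed on living tissue. Most of it is made from isochorismate: ICS1 produces isochorismate in the plastid, EDS5 exports it, and PBS3 joins it to glutamate, after which the conjugate breaks down to salicylate. EDS1 and PAD4 form a complex that raises synthesis after immune receptors fire. NPR1 binds salicylate and acts with TGA transcription factors to switch on response genes, such as those of the secreted proteins PR1, PR2 and PR5. LURP1 is a further induced gene, needed for full defence against downy mildew. ABA and salicylate signalling are known to counteract each other in Arabidopsis.

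The values are the authors' FPKM, fragments per transcript length and sequencing depth, with 1 value per group. No value per sample was at hand, so no SD stands beside a level, the depth is unknown, and the authors' own test across all loci (Cuffdiff, adjusted p called q, threshold 0.05) is the test used. Nothing states that replicates came from separate cultures, so these p-values may measure technical spread. RBM25 itself, the check of the labels, was at 9.15 FPKM in untreated wild type and 2.55 in untreated rbm25-1, and at 9.26 and 1.46 with ABA, in the authors' deposited tables (q = 0.000132 both times). In whole seedlings, more RNA per cell and more cells of a type cannot be told apart.

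The response genes PR2 and LURP1, and the row that merges PR1 with its relative PRB1, were higher in rbm25-1 both without and with ABA. These 3 exceeded wild type by 3.27-fold to 9.45-fold, and the largest fold is that of the merged row. The synthesis genes ICS1 and PBS3 were higher in rbm25-1 with ABA (2.52-fold and 2.65-fold), and neither passed the test without it. EDS1 and PAD4 were higher in rbm25-1 in both conditions by less than 1.5-fold. EDS5 and NPR1 passed the test in no comparison. These folds are from the authors' deposited tables.

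**Figure D1:**
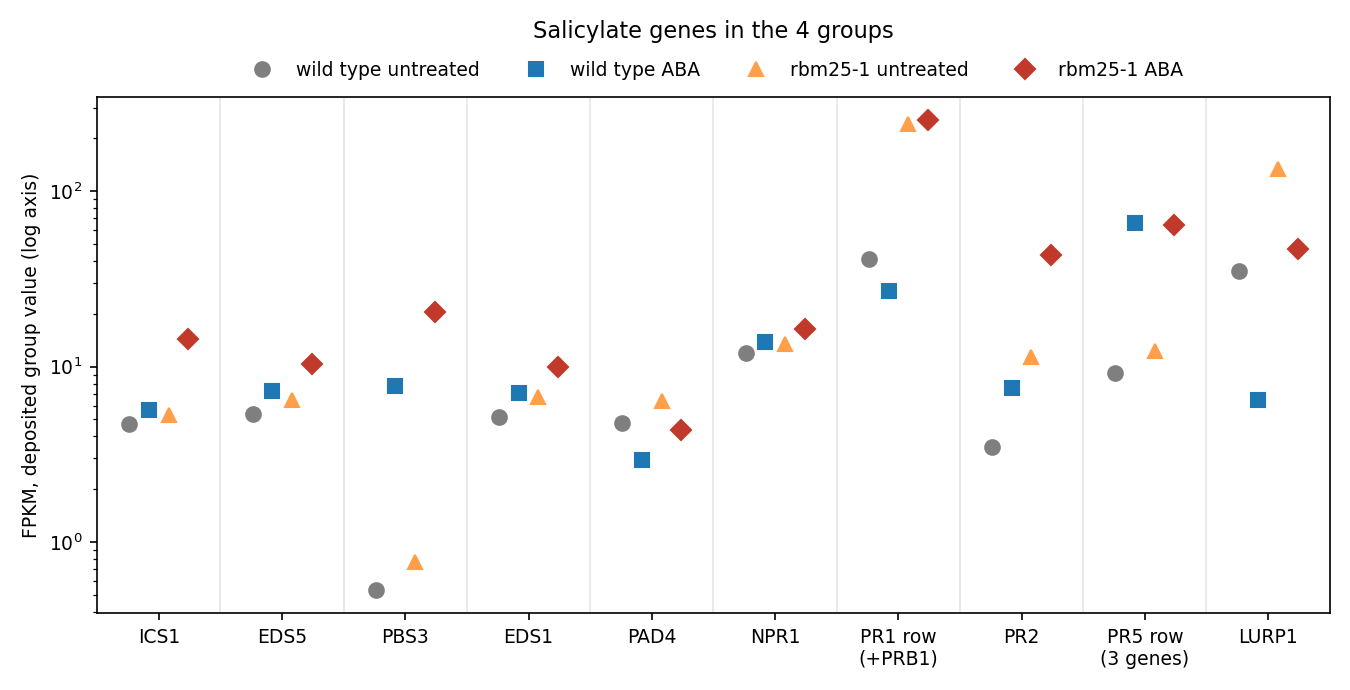
Deposited FPKM (log axis) of the 10 salicylate genes in the 4 groups, 1 point per group and no error bar because the tables hold 1 value per group. The PR1 row is at 241.5 and 254.5 FPKM in rbm25-1 against 41.3 and 26.9 in wild type, while NPR1 stays between 11.9 and 16.4.

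ICS1 (AT1G74710), the isochorismate synthase that makes most stress-induced salicylate, lies on chromosome 1 from 28070295 to 28074148 in the TAIR10 coordinates of the tables. The authors' deposited tables give it 4.74 FPKM in untreated wild type, 5.69 in wild type with ABA, 5.27 in untreated rbm25-1 and 14.4 in rbm25-1 with ABA. The last group thus stood apart from the other 3. Against wild type with ABA, the log2 difference was 1.34 (q = 0.000132), the 145th highest of 19234 ranked loci in the authors' deposited table. The ABA effect in wild type (log2 0.26, q = 0.132) and the untreated difference between genotypes (log2 0.15, q = 0.402) did not pass in the authors' deposited tables.

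PBS3 (AT5G13320), the amidotransferase of the glutamate step (chromosome 5, 4267510 to 4271051), had the widest range of the 10 genes in deposited values, 38.5-fold over the 4 groups. That range starts from a low value of 0.535 FPKM. With 1 FPKM added to both values, its ABA change in wild type was log2 2.52. It was at 0.535 FPKM in untreated wild type and 0.771 in untreated rbm25-1, and at 7.78 and 20.6 with ABA, in the authors' deposited tables. Both ABA groups lay above both untreated groups. ABA raised it 14.5-fold in wild type (log2 3.86, q = 0.000132), and with ABA rbm25-1 exceeded wild type by log2 1.41 (q = 0.000132) in the authors' deposited tables. The untreated difference, log2 0.53 at under 1 FPKM in both groups, had q = 0.0984 in the authors' deposited table.

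EDS5 (AT4G39030), the exporter of the plastid envelope, shares its deposited locus (chromosome 4, 18185667 to 18190556) with the more abundant AT4G39040, which fell with ABA in wild type from 80.8 to 44.8 FPKM (q = 0.000132) in the authors' deposited table. EDS5 had 5.36 FPKM in untreated wild type, 7.28 in wild type with ABA, 6.42 in untreated rbm25-1 and 10.4 in rbm25-1 with ABA in the authors' deposited tables. Its level was highest where those of ICS1 and PBS3 were highest too. None of its differences passed: the q values were 0.299, 0.587 and 0.122 for ABA in wild type, the mutant untreated and the mutant with ABA in the authors' deposited tables.

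EDS1 and PAD4 are lipase-like proteins that act as a pair, and ABA moved their RNA in opposite directions in wild type. EDS1 (AT3G48090, chromosome 3, 17755374 to 17757780) rose from 5.16 to 7.1 FPKM (log2 0.46, q = 0.00224), and PAD4 (AT3G52430, chromosome 3, 19431371 to 19434424) fell from 4.8 to 2.95 (log2 -0.70, q = 0.000132), in the authors' deposited table. In untreated rbm25-1 EDS1 was at 6.72 FPKM (log2 0.38, q = 0.0154) and PAD4 at 6.37 (log2 0.41, q = 0.0131) in the authors' deposited table. Both calls are small and were lost when the deposited p-values were adjusted within that table alone (0.0999 for EDS1 and 0.0892 for PAD4). With ABA, EDS1 was at 9.9 FPKM in rbm25-1 (log2 0.48, q = 0.00095) and PAD4 at 4.37 (log2 0.57, q = 0.00182) in the authors' deposited table. A close copy of EDS1 next to it, EDS1B, could share reads with it, and had at most 1.65 FPKM in any group in the authors' deposited tables.

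NPR1 (AT1G64280) varied least, by 1.37-fold over the groups. It shares its deposited locus (chromosome 1, 23850572 to 23855700) with the pseudogene AT1G64270, whose own row was at 1.27 FPKM or less in every group. The deposited values of NPR1 were 11.9 FPKM in untreated wild type, 13.8 in wild type with ABA, 13.5 in untreated rbm25-1 and 16.4 in rbm25-1 with ABA. In the order above, the q values in the authors' deposited tables were 0.185, 0.277 and 0.0945. The protein is known to be controlled mainly by its redox state, its entry into the nucleus and its turnover, none of which RNA levels show.

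PR1 (AT2G14610), whose product is the usual marker of salicylate defence in leaves, is merged in the tables with its basic relative PRB1 (AT2G14580) into 1 row. That locus (chromosome 2, 6225535 to 6242505) spans 16971 bases, in which RefSeq annotates 2 coding genes and 4 pseudogenes, and the row's value cannot be split between them. The PR1 row was at 41.3 FPKM in untreated wild type, 26.9 in wild type with ABA, 241.5 in untreated rbm25-1 and 254.5 in rbm25-1 with ABA in the authors' deposited tables. Both mutant groups stood far above both wild-type groups. ABA lowered the row 1.53-fold in wild type (log2 -0.62, q = 0.000132), and rbm25-1 exceeded wild type by log2 2.55 untreated and 3.24 with ABA (q = 0.000132 each), in the authors' deposited tables. These differences ranked 27th highest of 19322 loci and 10th highest of 19234.

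LURP1 (AT2G14560, chromosome 2, 6213972 to 6217306) had the same order of genotypes and a steeper fall with ABA. The authors' deposited tables list 35.2 FPKM in untreated wild type, 6.45 in wild type with ABA, 134.7 in untreated rbm25-1 and 47.1 in rbm25-1 with ABA. The mutant with ABA thus still exceeded the untreated wild type. ABA lowered LURP1 5.46-fold in wild type (log2 -2.45), and it was higher in rbm25-1 by log2 1.94 untreated and 2.87 with ABA, each with q = 0.000132 in the authors' deposited tables. Its ranks from the highest difference were 45 and 18.

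PR2 (AT3G57260), a secreted beta-glucanase (chromosome 3, 21188517 to 21189859), was raised by ABA in wild type, unlike the PR1 row and LURP1. It went from 3.46 FPKM in untreated wild type to 7.58 with ABA, and from 11.3 in untreated rbm25-1 to 43.2 with ABA, in the authors' deposited tables. ABA and the mutation each went with a higher level, and the group with both was the highest. The log2 differences were 1.13 for ABA in wild type, 1.71 for the mutant untreated and 2.51 for the mutant with ABA, each with q = 0.000132 in the authors' deposited tables. Its ranks among the mutant differences were 65 and 27.

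PR5 (AT1G75040), a thaumatin-like protein, is merged with the neighbouring genes AT1G75030 (TLP-3) and AT1G75050 into 1 row (chromosome 1, 28174160 to 28181062), and the value cannot be assigned to PR5 alone. The row was at 9.21 FPKM in untreated wild type, 66.2 in wild type with ABA, 12.3 in untreated rbm25-1 and 64.5 in rbm25-1 with ABA in the authors' deposited tables. Unlike the other response genes, this row followed the hormone and hardly the genotype. ABA raised it by log2 2.85 in wild type (q = 0.000132), and the mutant differed by log2 0.42 untreated (q = 0.013) and -0.04 with ABA (q = 0.825), in the authors' deposited tables. The untreated call was lost with adjustment within the table (0.0883).

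PR2 and LURP1 are the members with a row of their own that were at least 2-fold higher in rbm25-1 in both conditions, and so their promoter windows are shown, from 250 bases before to 50 after the RefSeq start (build TAIR10.1). Capitals mark TTGAC on either strand, the core of the W-box that WRKY factors bind.
PR2 promoter, chr3:21189918-21190217, minus strand: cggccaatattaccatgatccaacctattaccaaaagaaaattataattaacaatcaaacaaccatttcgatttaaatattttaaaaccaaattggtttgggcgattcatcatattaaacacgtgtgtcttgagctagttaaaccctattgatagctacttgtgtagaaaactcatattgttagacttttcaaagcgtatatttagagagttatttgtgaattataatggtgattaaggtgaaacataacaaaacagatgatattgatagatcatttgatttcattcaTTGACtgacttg
LURP1 promoter, chr2:6213367-6213666, plus strand: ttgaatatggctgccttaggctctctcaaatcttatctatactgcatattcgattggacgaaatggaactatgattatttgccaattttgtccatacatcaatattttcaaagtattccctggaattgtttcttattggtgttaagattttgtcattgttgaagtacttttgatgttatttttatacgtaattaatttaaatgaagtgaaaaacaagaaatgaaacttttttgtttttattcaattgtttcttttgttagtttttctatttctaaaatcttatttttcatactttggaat
For both genes the RefSeq start lies outside the deposited locus, on its upstream side, so a window set on the deposited locus would differ. The PR2 window holds 1 TTGAC, at position 38 counted from the start, and the LURP1 window none on either strand. Of the windows of the 9 members other than PR1, 5 hold TTGAC, against 50.5% of 27443 windows of the same length in the genome. TGACG, the core bound by TGA factors, which are the partners of NPR1, was found on neither strand in any of these 9 windows, against 23.1% of all windows. TGACG can overlap TTGAC by sharing TGAC, and a match in so short a window is a description of letters only.

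For ABA in wild type, 7 of the 10 genes passed the authors' test in their deposited table, 4 higher (PBS3, EDS1, PR2 and the PR5 row) and 3 lower (PAD4, the PR1 row and LURP1). Of all loci, 56.1% passed, 26% higher and 30.1% lower, so the members' count is not far from the background. Their median log2 change was 0.35, beside -0.07 over all loci. At a change of at least 2-fold, PBS3, PR2 and the PR5 row were higher, where 11.8% of all loci were, and LURP1 was lower, where 11.6% were (23.4% in either direction). With adjustment within the table the same 7 passed, beside 55.9% of all loci.

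In untreated rbm25-1, 6 of the 10 genes were higher and 0 lower by the authors' deposited q, against 6.15% of all loci higher and 7.2% lower (13.3% in either direction). The log2 difference was above 0 for all 10, with a median of 0.42 beside -0.01 over all loci. When the p-values were adjusted within the table, 3 remained, the PR1 row, PR2 and LURP1, and 5.83% of all loci. The same 3 were at least 2-fold higher, as were 0.735% of all loci, and 0 members were 2-fold lower, beside 0.673%.

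With ABA, 7 of the 10 were higher in rbm25-1 and 0 lower, against 17.7% of all loci higher and 14.3% lower (31.9% in either direction), in the authors' deposited table. Their median difference was log2 0.95 beside 0.02 over all loci, and 9 genes were above 0. Of these 7, the PR1 row, LURP1, PR2, PBS3 and ICS1 were at least 2-fold higher, which 1.3% of all loci were (3.09% in either direction). Higher in both conditions were 5 genes (EDS1, PAD4, the PR1 row, PR2 and LURP1), as were 3.05% of 18510 loci in both tables. At least 2-fold higher in both were 3, as were 0.308%.

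**Figure D2:**
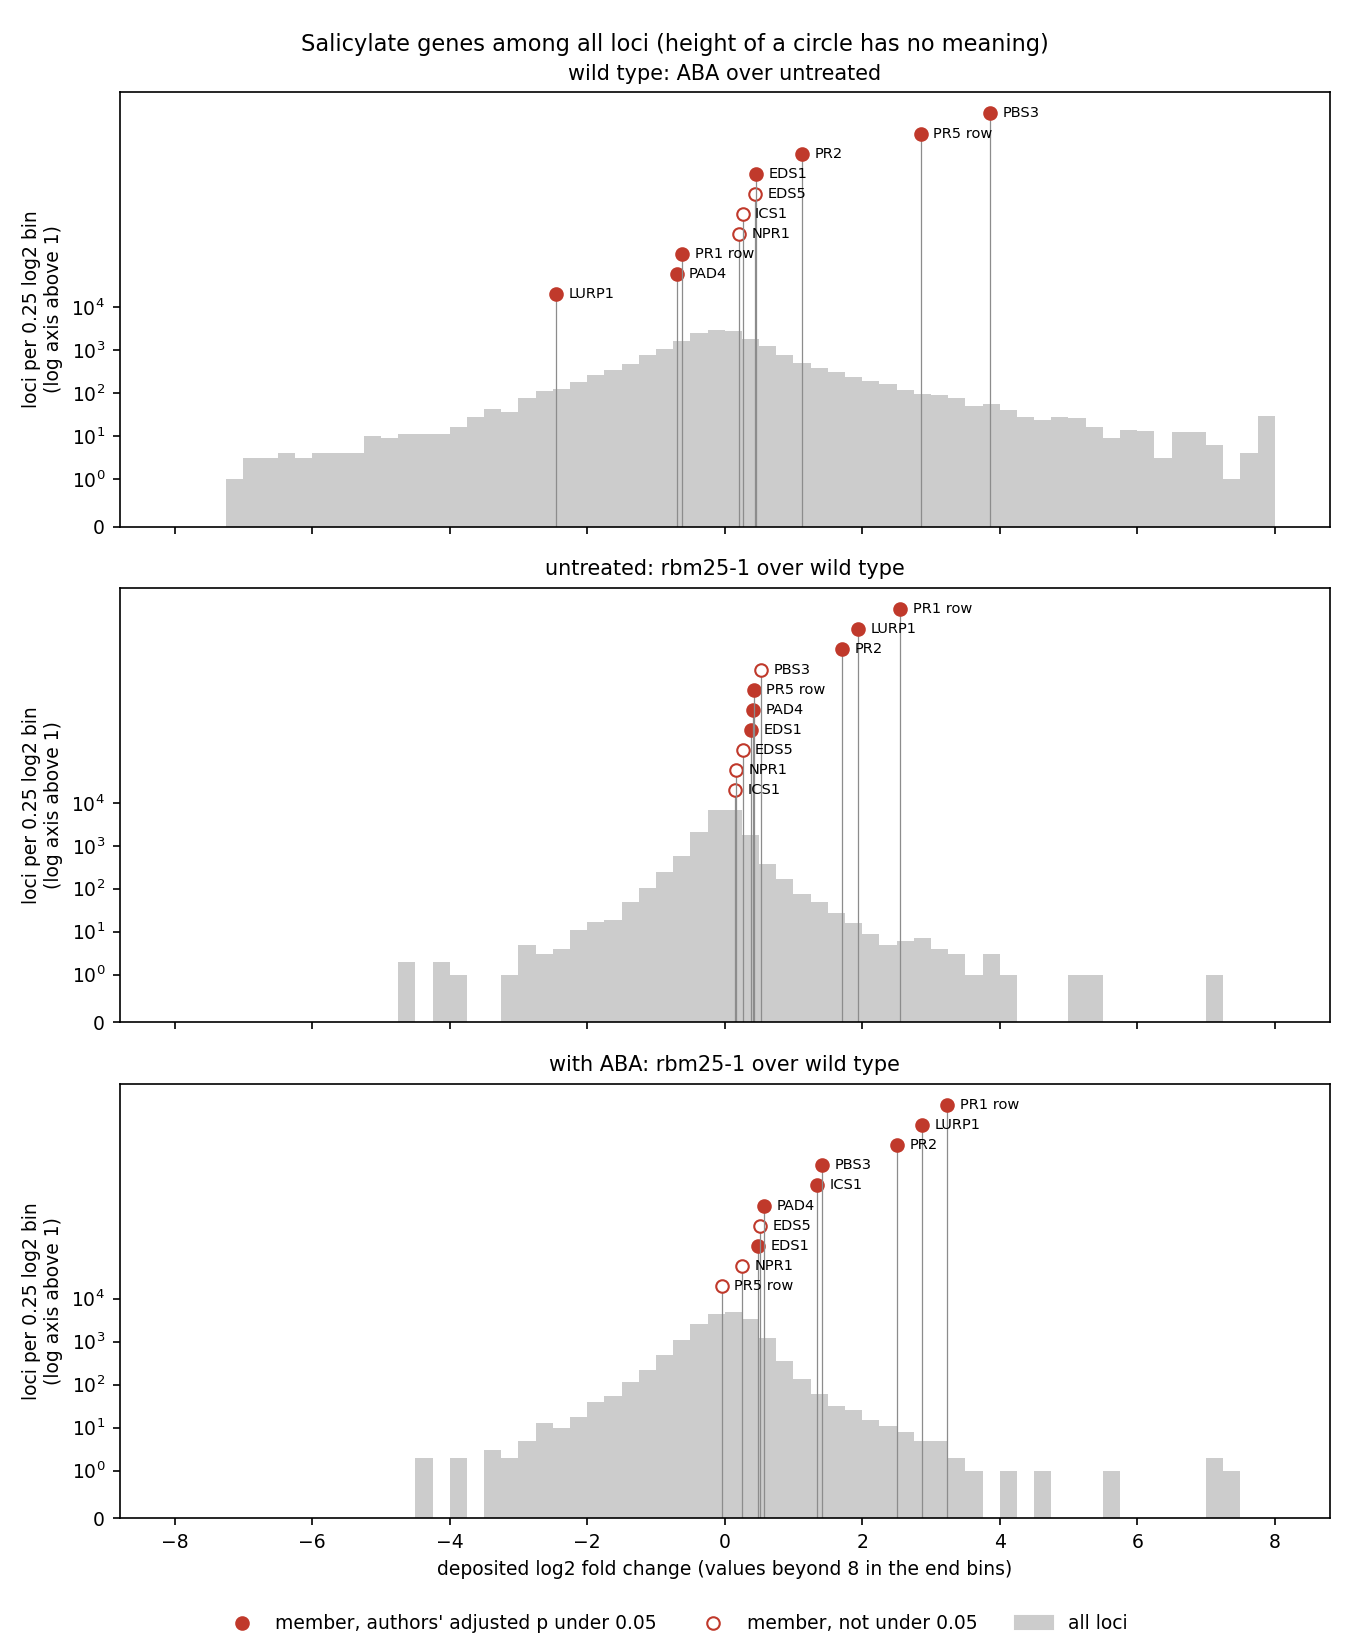
Deposited log2 fold changes of the 10 genes (red circles, filled where the authors' q is under 0.05) over the histogram of all loci in bins of 0.25 (grey, log axis above 1), 1 panel for each comparison. The members spread to both sides with ABA in wild type (-2.45 to 3.86) and lie mostly to the right for rbm25-1 (0.15 to 2.55 untreated, -0.04 to 3.24 with ABA).

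The difference between genotypes was numerically larger with ABA than without for 9 of the 10 genes, where 52.4% of 18505 loci had the larger value with ABA. This change in the difference was not tested, since the tables hold no values per sample. By the authors' deposited values it came to log2 1.18 for ICS1, 0.93 for LURP1, 0.88 for PBS3, 0.80 for PR2 and 0.69 for the PR1 row. EDS5 (0.26), PAD4 (0.16), EDS1 (0.10) and NPR1 (0.07) had 0.26 or less, and the PR5 row went the other way (-0.46).

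**Figure D3:**
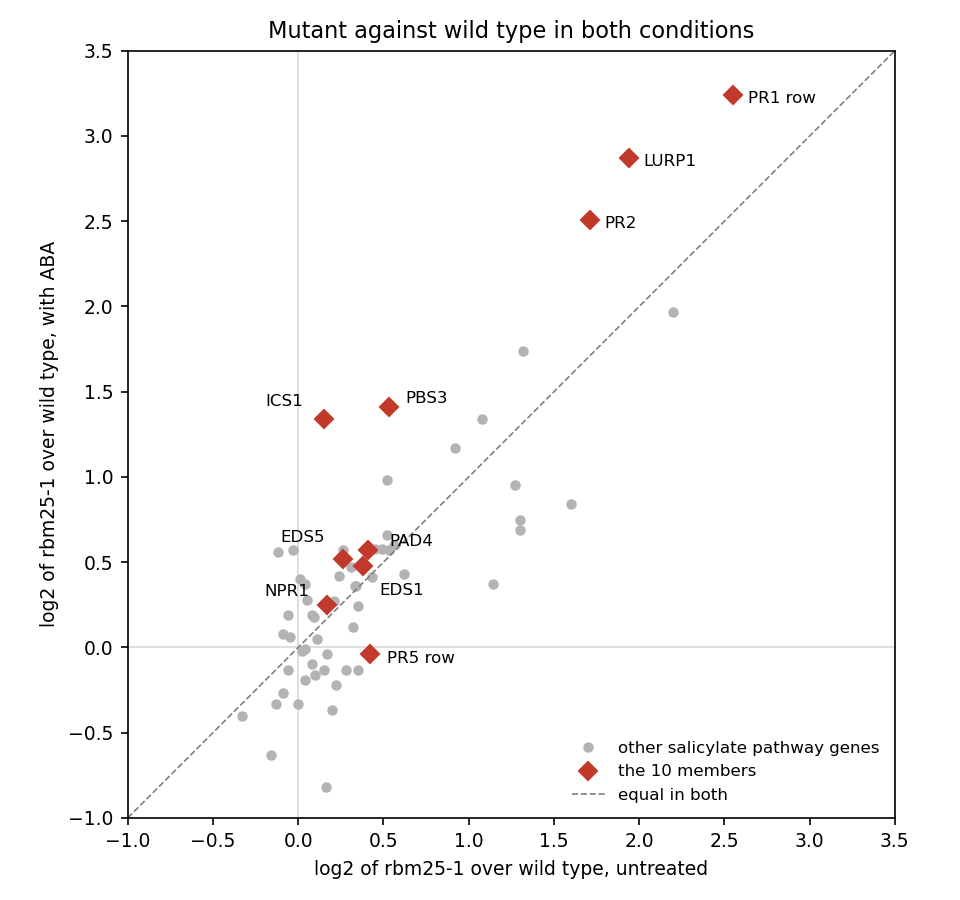
Deposited log2 fold change of rbm25-1 over wild type for the 10 genes, untreated (x axis) and with ABA (y axis), with a diagonal where both are equal. The PR5 row lies below the diagonal and the other 9 genes lie above it, ICS1 farthest at 1.34 with ABA and 0.15 untreated.

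Since ABA was not compared with no treatment within rbm25-1 in the deposited tables, the ratio of the deposited group values is given, with no test. PBS3 was 26.7-fold, the PR5 row 5.23-fold, PR2 3.82-fold and ICS1 2.72-fold higher with ABA in the mutant by these deposited values. LURP1 was at 0.35 of its untreated level and PAD4 at 0.686, while the PR1 row was at 1.05. A ratio of at least 2-fold thus held for 5 genes, 4 higher and 1 lower, against 11.5% and 11.1% of 18507 loci (22.6% in either direction). The PR1 row, which had fallen with ABA in wild type, was nearly level in the mutant, and no test of that contrast was possible.

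Since RBM25 is a splicing factor, the deposited splicing tables were searched for the same genes. They hold 10502, 9849 and 11170 usable events for ABA in wild type, the mutant untreated and the mutant with ABA, of which 0, 1 and 1 belong to a member. Neither of these 2 events passed, at an unadjusted p under 0.05 or after Benjamini-Hochberg adjustment within its table. Over all events, 4.83%, 6.13% and 6.4% had an unadjusted p under 0.05, and 0.00952%, 0.0102% and 0.0179% (1, 1 and 2 events) an adjusted p under 0.05, in the authors' deposited tables. A gene with no listed event was not measured here for splicing.

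The LURP1 event is the retention of a known intron of 313 bases (chr2:6214684-6214996). Its level in the authors' deposited table, as percent spliced in (PSI), was 3.96 in untreated wild type and 12.65 in untreated rbm25-1, a difference of 8.69 points (p = 0.354, adjusted 0.896). The EDS5 event is an alternative acceptor marked as new in the tables, where the shorter intron has 102 bases (chr4:18187320-18187421) and the longer 779 (chr4:18187320-18188098). In the authors' deposited table the PSI of the shorter form was 100 in wild type with ABA and 77.78 in rbm25-1 with ABA, a difference of -22.22 points (p = 0.193, adjusted 0.887). The longer junction skips exons 6 and 7 and a part of exon 8 of 12 in RefSeq. The splice sites of both events are shown on the plus strand, with 15 exon and 15 intron bases each and the first or last 2 intron bases in capitals.
LURP1 donor, chr2:6214669-6214698: accattattgcccacGTaaacaaactctct
LURP1 acceptor, chr2:6214982-6215011: tggtttgaatggcAGatgtgcggaaagcaa
EDS5 donor, chr4:18187305-18187334: tgctcaaagtgcaagGTttcttacacttcc
EDS5 acceptor of the shorter intron, chr4:18187407-18187436: gagaatctgtctcAGtcttggaatgaagaa
EDS5 acceptor of the longer intron, chr4:18188084-18188113: ccacgcttggattAGtcttgggagttatcg
All of these introns begin with GT and end with AG. The first 6 exon bases after the AG are the same at both EDS5 acceptors, which lie 677 bases apart.

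Other genes of the pathway were read from 7 lists of 67 genes: regulators and other enzymes of synthesis, conversion of salicylate, NPR1 partners, EDS1 partners and immune receptors, the pipecolate pathway, and further response genes. After leaving out merged rows, names that did not match and genes not in a table, 53, 54 and 55 genes had a value for ABA in wild type, the mutant untreated and the mutant with ABA. With ABA in wild type 36 were higher and 6 lower, in untreated rbm25-1 22 were higher and 0 lower, and in rbm25-1 with ABA 25 were higher and 5 lower, in the authors' deposited tables. These are 67.9%, 40.7% and 45.5% higher, beside 26%, 6.15% and 17.7% of all loci. Lower were 11.3%, 0% and 9.09%, beside 30.1%, 7.2% and 14.3% of all loci. The lists were chosen with earlier results of these data known, so their shares are a description only. The same shares of all loci are the background for the counts of each list and marker set below. In untreated rbm25-1, 8 stayed higher with adjustment within the table.

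The 8 regulators of synthesis comprise activators (SARD1, CBP60G, WRKY28 and WRKY46) and genes known to hold synthesis or immunity back (CBP60A, CAMTA1, CAMTA2 and CAMTA3). With ABA in wild type 7 were higher, all but CAMTA1, so both kinds are among them. In untreated rbm25-1 SARD1, WRKY28 and CAMTA3 were higher, of which SARD1 alone stayed with adjustment within the table, and with ABA the 4 activators were higher, of which 3 stayed. In all 3 comparisons 0 were lower. SARD1, a transcription factor that binds the ICS1 promoter, was at 1.1 FPKM in untreated wild type and 2.64 in untreated rbm25-1 (log2 1.27), and at 4.37 and 8.47 with ABA (log2 0.95), each with q = 0.000132 in the authors' deposited tables. It was the regulator with the largest difference in both mutant comparisons. CBP60G, its close relative, rose with ABA by log2 1.62 and was higher in rbm25-1 with ABA by 0.56 (q = 0.000132 each), and its untreated log2 difference was -0.12 (q = 0.573), in the authors' deposited tables. WRKY28 followed with log2 1.65 for ABA in wild type (q = 0.000132) and 0.58 for the mutant with ABA (q = 0.000376) in the authors' deposited tables.

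ICS2, the minor isochorismate synthase, was lower in rbm25-1 with ABA, where ICS1 was higher. It rose with ABA in wild type from 1.13 to 14.1 FPKM (log2 3.64) and was at 7.99 in rbm25-1 with ABA (log2 -0.82), each with q = 0.000132 in the authors' deposited tables. Of the phenylalanine ammonia-lyases, enzymes of the other route to salicylate, PAL4 rose with ABA (log2 2.01) and PAL3 fell (-1.77), each with q = 0.000132 in the authors' deposited table. Of the 6 other enzymes of synthesis, 3 were higher and 1, ICS2, lower in rbm25-1 with ABA. The higher ones were PAL1 (log2 0.40, q = 0.00245), PAL2 (0.47, q = 0.000494) and PAL3 (0.57, q = 0.00276). Without ABA 1 was higher, PAL2 (log2 0.31, q = 0.023), and 0 lower. That call was lost with adjustment within the table (0.13). Of 6 conversion genes, 1 was higher and 0 lower in untreated rbm25-1, beside 6.15% and 7.2% of all loci. With ABA 1 was higher and 2 lower, beside 17.7% and 14.3% of all loci, so the higher count is near the background. The higher one was both times DMR6, which hydroxylates salicylate (log2 0.52 untreated, q = 0.00061, and 0.66 with ABA, q = 0.000132, in the authors' deposited tables). The lower ones were the methylesterase genes MES1 (log2 -0.63, q = 0.0256) and MES9 (log2 -0.40, q = 0.0115) in the authors' deposited table. The MES1 call was lost with adjustment within the table (0.053). UGT74F2, a salicylate glucosyltransferase, rose with ABA in wild type from 38 to 129.2 FPKM (log2 1.77, q = 0.000132) in the authors' deposited table.

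Among NPR1 partners and other signalling genes, 9 of 18 were higher in untreated rbm25-1 and 0 lower, of which 1, WRKY54, stayed with adjustment within the table. With ABA, 7 of 18 were higher and 1, NPR3, lower, and 4 and 1 with adjustment within the table. WRKY54, a WRKY factor of the salicylate response, was at 1.51 FPKM in untreated wild type and 2.86 in untreated rbm25-1 (log2 0.92), and at 0.961 and 2.16 with ABA (log2 1.17), each with q = 0.000132 in the authors' deposited tables. Like PAD4, the PR1 row and LURP1, it fell with ABA in wild type (log2 -0.65, q = 0.0278 in the authors' deposited table). NPR3, a salicylate receptor that represses response genes, rose with ABA from 8.31 to 19 FPKM (log2 1.19, q = 0.000132) and was lower in rbm25-1 with ABA, at 14.7 (log2 -0.37, q = 0.00849), in the authors' deposited tables. NIMIN1, an inhibitor that binds NPR1, was higher in rbm25-1 by log2 1.30 untreated (q = 0.0268) and 0.69 with ABA (q = 0.0346) in the authors' deposited tables, at 3.4 FPKM or less. Both of its calls were lost with adjustment within the tables (0.145 and 0.0678).

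Of 8 EDS1 partners and immune receptors, 1 was higher in untreated rbm25-1 and 3 with ABA, and 0 were lower. SNC1, an immune receptor gene whose overactivity is known to raise PR1 and PR2, was at 3.81 and 5.64 FPKM in the untreated genotypes (log2 0.56, q = 0.0112) and at 3.91 and 5.93 with ABA (log2 0.60, q = 0.00516) in the authors' deposited tables. Its untreated call was lost with adjustment within the table (0.08). ALD1, the first enzyme of pipecolate synthesis, rose with ABA from 0.236 to 1.8 FPKM (log2 2.93, q = 0.000132) and was lower in rbm25-1 with ABA, at 1.07 (log2 -0.74, q = 0.00886), in the authors' deposited tables.

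Of 8 further response genes, 7 were higher in untreated rbm25-1 and 7 with ABA, and 0 were lower. Of these, 5 and 6 stayed higher with adjustment within the table. PNP-A, a small secreted peptide, was at 5.29 FPKM in untreated wild type and 13.2 in untreated rbm25-1 (log2 1.32), and at 13.4 and 44.8 with ABA (log2 1.74), each with q = 0.000132 in the authors' deposited tables. WAK1, a cell-wall-associated kinase, was higher by log2 1.30 and 0.75, again with q = 0.000132 each in the authors' deposited tables. BG3, a glucanase gene near PR2 that resembles it and could share reads, was at 0.187 and 0.86 FPKM in the untreated genotypes (q = 0.0145) and at 0.36 and 1.42 with ABA (log2 1.97, q = 0.000132) in the authors' deposited tables. The untreated call of BG3 was lost with adjustment within the table (0.0959). ACD6, a membrane protein that promotes salicylate defence, fell with ABA in wild type (log2 -1.64, q = 0.000132) in the authors' deposited table.

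**Figure D4:**
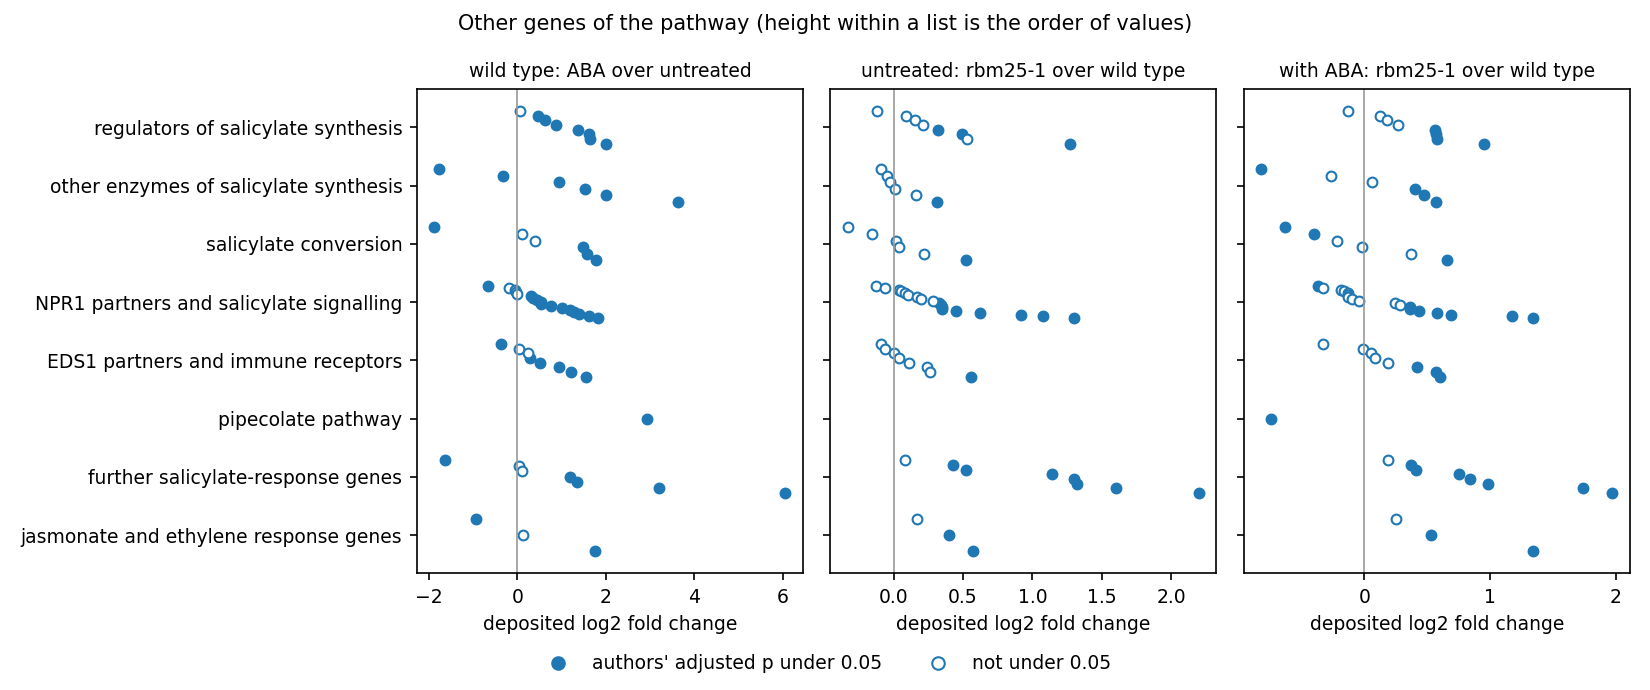
Deposited log2 fold changes (x axis, with a different scale in each panel) of the listed pathway genes with a row of their own, 1 circle per gene, filled where the authors' q is under 0.05, for the 3 comparisons. The jasmonate and ethylene response genes PR3, PR4 and PDF1.2A, which are not on the salicylate pathway lists, are drawn as well. In both mutant panels the further response genes reach farthest to the right, with BG3 farthest in each (log2 1.97 with ABA).

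The loci whose pattern over the 3 deposited log2 changes came nearest to the PR1 row, by straight-line distance among 18440 loci, were not salicylate genes of the lists. The nearest was the pseudogene AT2G01022, at a distance of 0.75 log2 units, with log2 -1.01 for ABA in wild type, 1.91 for the mutant untreated and 3.29 with ABA in the authors' deposited tables. It was followed by the pseudogene AT2G17490 (distance 0.96), the merged row of AT5G24240 and AT5G24250 (1.12), AT1G34047 (1.34) and the merged row of CYP82C4 and CYP82C2 (1.51). AT2G17490, the AT5G24240 row and AT1G34047 were under 1 FPKM in both wild-type groups. Their ABA changes in wild type did not pass (q = 0.339, 0.301 and 0.937), while those of AT2G01022 (q = 0.0327) and the CYP82C4 row (q = 0.0015) did. The likeness is a description over 3 comparisons, of which the first shares wild-type groups with both others.

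Markers of other tissues moved too, and their part in the results was not tested. Of 3 single-gene leaf markers (RBCS1A, PSAD1 and CA1), 3 fell with ABA in wild type, 1 was higher in untreated rbm25-1 and 3 were higher in rbm25-1 with ABA in the authors' deposited tables. Their summed level was 7729.6 and 2274.5 FPKM in wild type without and with ABA, and 9582.2 and 3896.4 in rbm25-1. CA1 differed most of these in rbm25-1, by log2 0.58 untreated and 1.14 with ABA, and the merged row that holds the leaf marker LHCB3 by log2 1.00 and 0.71, each with q = 0.000132 in the authors' deposited tables. Of 5 root markers, 5 fell with ABA in wild type and 1, CASP4, was lower in untreated rbm25-1, while 0 of the 3 measured passed in rbm25-1 with ABA. The CASP4 call was lost with adjustment within the table (0.14). Of 4 markers of guard cells (KAT1 and MYB60) or their precursors (EPF1 and MUTE), 1, KAT1, rose and 3 fell with ABA in wild type. In untreated rbm25-1 0 passed, and 2, KAT1 and MUTE, were higher in rbm25-1 with ABA. Of these, MUTE was lost with adjustment within the table (0.0523). Both measured senescence markers rose with ABA in wild type, SAG13 from 1.32 to 88.1 FPKM (log2 6.06) and SGR1 by log2 2.48 (q = 0.000132 each), in the authors' deposited table. SAG13, which is also on the list of further response genes, was higher in rbm25-1 by log2 1.14 untreated (q = 0.000132) and 0.37 with ABA (q = 0.00997) in the authors' deposited tables. SGR1 passed in neither mutant comparison, with log2 0.20 untreated (q = 0.579) and -0.23 with ABA (q = 0.245). The senescence marker SAG12 and the flower genes AP3 and AG were in none of the deposited tables. The flower gene PI fell with ABA in wild type from 0.994 to 0.519 FPKM (q = 0.0188). The seed markers summed to 14.4 FPKM or less in any group, with 5.22 in wild type and 14.4 in rbm25-1 with ABA. There OLEO2 (log2 1.55, q = 0.000132), EM1 (log2 0.50, q = 0.0175) and CRC (0 to 0.59 FPKM, q = 0.000132) were higher. CRA1, at 0.024 FPKM in wild type and 3.8 in rbm25-1 with ABA, is part of that sum and did not pass (q = 0.221). In untreated rbm25-1 the seed marker CRA1 was lower (log2 -2.11, q = 0.000132).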

How the data were processed

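Polyadenylated RNA was sequenced in 12 samples (4 groups of 3). Per the submitters' processing notes the authors used the genome build TAIR10 and Cuffdiff, with Cufflinks 2.2.1, TopHat2 2.0.13 and Trimmomatic 0.32. The splicing program is not given in the sources used here. The deposited gene tables hold, per the file headers, FPKM per group, a log2 fold change, a p-value and a q-value, and the splicing tables give percent spliced in per group, its difference as a score, and an unadjusted p-value. The same p-value had the same q in each deposited table, so 1 adjustment spans all 3. It must also cover tests outside them. At the smallest p, 5e-05, the deposited q was 0.000132. Benjamini-Hochberg adjustment within each table gave 0.000151 for ABA in wild type, 0.0022 for the mutant untreated and 0.000591 with ABA, all larger. The lowest deposited FPKM of the higher group was 0.547, so lower genes had been left out upstream. Damaged splicing events (33, 28 and 28) were dropped. Without replicate values the planned count test did not apply, and depth and precision are unknown.

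Genes were called at the authors' q under 0.05, for higher and lower values apart. Benjamini-Hochberg adjustment within each table, computed here and tested on simulated data, at least 2-fold, at least 1 FPKM in both groups, a pseudocount of 1 FPKM and centring on the median were the alternatives. Members and lists were chosen with earlier results of these data known. Beyond the members, listed genes were named if called with a log2 change of at least 1, or else the 2 called genes with the largest change (the text gives a selection of these, and a gene named in 1 comparison is also given in others), and the 5 loci nearest to the PR1 row. List names that did not match the annotation (S3H, NRG1.1, NRG1.2 and SARD4) were left out. Loci starts were raised by 1, to count from 1. The promoter window of 1 member is not reported here. RefSeq TAIR10.1 gave names, promoters and splice sites, and 95.6%, 95.7% and 94.9% of the deposited retained introns had GT-AG ends in it. Python with pandas 2.3.3, numpy 2.4.6, scipy 1.17.1 and matplotlib 3.10.9 was used.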

Additional observations from a re-analysis of the deposited data

How the results depend on the processing

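No paired analysis was possible because no values of single samples were at hand, and for the same reason no replicate could be left out. In untreated rbm25-1 the count of members called fell from 6 to 3 in each of these settings: adjustment within the table, at least 2-fold, and at least 1 FPKM in both groups with the p-values adjusted over the loci left. EDS1, PAD4 and the PR5 row were the members lost. For ABA in wild type it fell from 7 to 4 at 2-fold or more. The other counts stayed within 1.5 times, and no member changed direction in any setting run, including a pseudocount of 1 FPKM and centring on the median of all loci. Leaving out the merged PR1 row, or both merged rows (chosen after seeing the data), left 6 and 5 members called for ABA in wild type, 5 and 4 in untreated rbm25-1, and 6 and 6 in rbm25-1 with ABA. Among the other pathway genes, those higher in untreated rbm25-1 went from 22 to 8 with adjustment within the table, and those in rbm25-1 with ABA from 25 to 20. Of all loci, 5.83% and 25.7% passed with that adjustment in either direction. Depth is unknown, so no interval can be set on a level, and low genes such as PBS3 in untreated seedlings are the least certain.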

Other observations

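Genes of the jasmonate and ethylene branch of defence, which often opposes the salicylate branch, also changed. PR3, a chitinase gene, was at 87.8 FPKM in untreated wild type and 130.0 in untreated rbm25-1 (log2 0.57, q = 0.00128), and at 297.4 and 428.5 with ABA (log2 0.53, q = 0.00802), in the authors' deposited tables. The defensin gene PDF1.2A fell with ABA in wild type from 19.5 to 10.2 FPKM (log2 -0.94) and was higher in rbm25-1 with ABA, at 25.7 (log2 1.34), each with q = 0.000132 in the authors' deposited tables. PR4 had a log2 difference of 0.40 in untreated rbm25-1 (q = 0.00564) and 0.25 with ABA (q = 0.0949) in the authors' deposited tables. The merged row of the storage proteins VSP1 and VSP2 rose with ABA from 23.6 to 217.5 FPKM (log2 3.20) and was at 321.2 in rbm25-1 with ABA (log2 0.56), each with q = 0.000132 in the authors' deposited tables.

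EDS1B, the close copy beside EDS1, did not follow EDS1 with ABA. It went from 1.37 to 0.734 FPKM in wild type (log2 -0.90, q = 0.00117) and was at 1.48 in rbm25-1 with ABA (log2 1.01, q = 0.000376) in the authors' deposited tables, while EDS1 rose with ABA by log2 0.46. In untreated rbm25-1 EDS1B was at 1.65 FPKM (log2 0.27, q = 0.254) in the authors' deposited table.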
